A study of Homo sapiens with 8 samples.

Results

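Chemokines are small secreted proteins that draw immune cells along a gradient, and epithelial cells make many of them during inflammation and infection. The genes described here are 10 chemokine genes that epithelial cells are known to express, CXCL1, CXCL2, CXCL3, CXCL5, CXCL6, CXCL8, CXCL16, CCL2, CCL5 and CCL20, of 19775 genes with a symbol on the arrays. All probe sets whose only gene symbol was one of these names were taken, 17 of 54675 probe sets. The genes were selected on their levels in these arrays, since results of the same arrays were known when the list was drawn up, so their levels and ratios are given as a description. Counts of members past a threshold are printed beside the share of all genes past it, where that share was computed, and nothing is read from them.

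CXCL1, CXCL2, CXCL3, CXCL5, CXCL6 and CXCL8 (interleukin 8) carry the glutamate, leucine and arginine motif in front of the first cysteines and attract neutrophils through the receptors CXCR1 and CXCR2. CCL2 attracts monocytes through CCR2, CCL5 attracts T cells and monocytes, and CCL20 attracts cells that carry CCR6. CXCL16 is unusual in being made as a transmembrane protein, a ligand of CXCR6 that metalloproteases shed from the surface. In epithelial cells many of these genes are induced by interleukin 1 and tumour necrosis factor through the transcription factor NF-kB, and their mRNAs are often short-lived because of AU-rich elements.

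Expression was measured in 4 human non-small cell lung cancer lines: A549 and H460, which carry mutant K-Ras, and H1650 and H1975, which carry mutant EGFR. Each line was stained with a Hoechst dye and sorted into a side population (SP), the cells that pump the dye out, and a main population (MP), the cells that retain it. There was 1 SP and 1 MP array for each line, 8 arrays in all. The lines are cultured without host cells, and each is a single established line, so a level that differs between lines cannot be assigned to the mutated oncogene. Because each population was measured in bulk, fewer cells expressing a gene and less of its RNA per cell cannot be told apart.

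The sequences just upstream of the genes are shown because 5 of these genes have upstream stretches that are near copies within a group, CXCL1, CXCL2 and CXCL3 in one and CXCL5 and CXCL6 in the other. In RefSeq, 6 of the genes lie on chromosome 4 in the order CXCL8, CXCL6, CXCL1, CXCL5, CXCL3 and CXCL2, with only PF4V1, PF4 and PPBP among them as other protein-coding genes. CXCL16, CCL2 and CCL5 lie on chromosome 17, and CCL20 on chromosome 2. RefSeq promoter sequence of the GRCh38.p14 build was used for 7 of the 10 genes; CXCL16, CCL2 and CCL5 were not analysed here. The 150 bases before each start follow, 5′ to 3′ on the strand of the gene, and capitals mark the letters GGAATTTCC, a match to the NF-kB motif, and TGACTCA, a match to the AP-1 motif.
CXCL1: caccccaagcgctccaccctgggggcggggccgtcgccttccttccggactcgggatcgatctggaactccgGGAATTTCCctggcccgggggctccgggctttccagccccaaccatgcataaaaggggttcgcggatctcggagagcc
CXCL2: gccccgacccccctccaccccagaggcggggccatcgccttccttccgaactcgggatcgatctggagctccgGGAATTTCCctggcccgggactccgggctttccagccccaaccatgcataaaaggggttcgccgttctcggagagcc
CXCL3: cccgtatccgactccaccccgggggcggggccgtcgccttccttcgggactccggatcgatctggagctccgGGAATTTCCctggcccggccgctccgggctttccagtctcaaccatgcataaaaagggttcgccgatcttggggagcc
CXCL5: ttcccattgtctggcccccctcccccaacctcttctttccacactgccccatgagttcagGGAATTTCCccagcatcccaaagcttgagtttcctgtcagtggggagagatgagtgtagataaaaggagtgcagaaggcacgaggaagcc
CXCL6: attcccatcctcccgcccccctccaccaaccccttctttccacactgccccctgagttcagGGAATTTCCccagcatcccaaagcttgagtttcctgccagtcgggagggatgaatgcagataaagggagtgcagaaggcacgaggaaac
CXCL8: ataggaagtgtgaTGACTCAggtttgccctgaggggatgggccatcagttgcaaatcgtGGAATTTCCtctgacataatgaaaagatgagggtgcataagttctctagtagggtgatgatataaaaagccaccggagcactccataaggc
CCL20: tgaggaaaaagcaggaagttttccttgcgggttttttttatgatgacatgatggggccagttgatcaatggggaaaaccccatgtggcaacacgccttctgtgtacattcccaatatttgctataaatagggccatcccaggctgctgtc
These stretches are chr4:73869243-73869392 on the plus strand for CXCL1, chr4:74099196-74099345 on the minus strand for CXCL2, chr4:74038690-74038839 on the minus strand for CXCL3 and chr4:73998678-73998827 on the minus strand for CXCL5. They are chr4:73836528-73836677 on the plus strand for CXCL6, chr4:73740419-73740568 on the plus strand for CXCL8 and chr2:227813692-227813841 on the plus strand for CCL20.

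GGAATTTCC stood upstream of all 6 chromosome 4 genes, each time on the strand of the gene. Its first base lay 78 bases before the start of CXCL1, 77 before CXCL2, 78 before CXCL3, 90 before CXCL5, 89 before CXCL6 and 91 before CXCL8. CCL20 did not hold these letters in the 250 bases searched before its start, and other spellings of the NF-kB motif were not searched. On either strand 145 of 35116 RefSeq promoters, 0.413%, held GGAATTTCC in 250 bases. TGACTCA was found upstream of CXCL8 alone among the 7, with its first base 137 bases before the start, and in 1476 promoters, 4.20%, overall. The stretches of CXCL1, CXCL2 and CXCL3 were 86.1% to 88.7% identical to each other and those of CXCL5 and CXCL6 were 89.4% identical. Between these 2 groups the identity was 53.0% to 56.0%, and CXCL8 was 43.6% to 50% identical to the other 5. A match in letters describes the sequence and does not show that a factor binds there.

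Levels are log2 MAS5 signals, in which 1 unit is a 2-fold difference, of the brightest probe set of a gene, and a level is compared only within a probe set. The median probe set had a log2 signal of 6.01, which is used below as the mark between dim and measured signal. All 10 genes had a mean above this mark, and 7 of them were above it on all 8 arrays. CXCL6 and CCL2 were above it on 4 arrays and CCL5 on 6. The study used ABCG2, the main pump of the side population, as a positive control for SP in its quantitative PCR of the 4 lines. On the arrays ABCG2 had SP over MP log2 ratios of 1.08, 0.36 and 1.17 in A549, H460 and H1975. In H1650 the ratio was -0.70, so that by this gene alone the SP array of H1650 goes against its label. Every direction given for H1650 therefore rests on its labels. Between 4 and 8 of 8 epithelial markers were above the mark on each array, and H460 had the fewest, with CDH1 at 1.61 and 0.63 and KRT18 at 13.7 and 13.6. Of 7 leukocyte markers 1 to 3 were above the mark on each array. PTPRC lay between 3.14 and 4.72, but CD14 was above the mark on all 8 arrays, between 7.39 and 9.42. CSF1R read 8.5 and 8.57 in H1650 and 6.76 and 7.09 in H1975, and was below the mark in A549 and H460. Of 5 endothelial markers 1 to 2 and of 7 fibroblast markers 3 to 6 were above the mark, COL1A1 reaching 13.0 in H1975. The log2 of the summed signal of the fibroblast list ran from 10.2 to 10.3 in A549, 11.9 in both arrays of H460, 10.2 to 10.6 in H1650 and 13.1 to 13.2 in H1975. That of the leukocyte list ran from 8.56 to 9.93 over the 8 arrays and that of the endothelial list from 7.41 to 8.13. The part of these markers in the chemokine levels was not tested.

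Which line was brightest differed between the chemokines. A549 had the highest mean of 4 genes (CXCL3, CXCL5, CXCL6 and CCL20) and the lowest of 0. H1650 had the lowest mean of 6 genes (CXCL1, CXCL2, CXCL3, CXCL5, CXCL8 and CCL20) and the highest of CCL5 alone. H1975 had the highest mean of CXCL2, CXCL8 and CCL2, and H460 the highest of CXCL1 and CXCL16 but the lowest of CXCL6, CCL2 and CCL5. Some first places were near ties. For CXCL16 H460 stood 0.0006 above H1650 on the log2 scale, and for CXCL8 H1975 stood 0.014 above H460. Of all 12300 genes 21.7%, 24.3%, 24.6% and 29.4% were highest in A549, H460, H1650 and H1975. The shares of genes lowest in each line were not computed. The difference between the highest and the lowest line, called the span below, ran from 2.39 to 7.92 on the log2 scale with a median of 4.74 when signals under 32 were set to 32, where the median over all 12300 genes past the filter was 1.13 (11.12 at the upper end as deposited, from dim signals of CCL2).

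**Figure D1:**
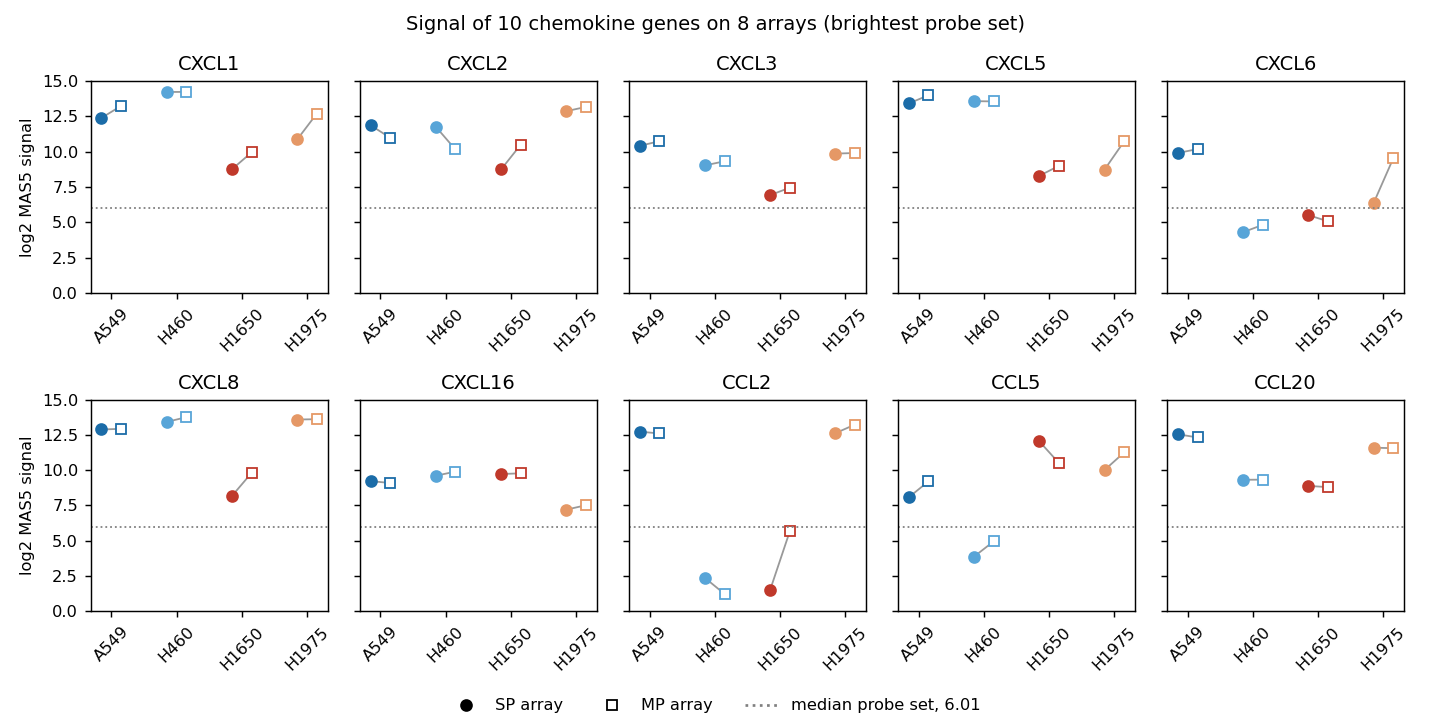
Log2 MAS5 signal (vertical axis) of the 10 chemokine genes in the 4 lines (horizontal axis), brightest probe set, with filled circles for SP arrays, open squares for MP arrays and a grey line joining the arrays of a line. The dotted line is the median probe set at 6.01. H1650 is lowest for CXCL8 at 8.18 and 9.80, and CCL2 lies above 12 in A549 and H1975 and below the dotted line in H460 and H1650.

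Among the neutrophil attractants, CXCL1 was brightest in H460. CXCL1 read 12.39 in SP and 13.24 in MP of A549, 14.22 and 14.23 in H460, 8.75 and 9.95 in H1650, and 10.86 and 12.69 in H1975. The order of the line means was H460, A549, H1975 and H1650, the arrays of A549 and H1975 overlapped, and the highest line stood 29.4-fold above the lowest. CXCL2 had another order. It read 11.87 and 10.98 in A549, 11.76 and 10.16 in H460, 8.74 and 10.49 in H1650, and 12.87 and 13.17 in H1975. H1975 stood apart at the top, while H460 overlapped both A549 and H1650, and the span was 10.6-fold. CXCL3 read 10.41 and 10.74 in A549, 9.03 and 9.32 in H460, 6.93 and 7.45 in H1650, and 9.86 and 9.91 in H1975. No neighbouring lines overlapped for CXCL3, in the order A549, H1975, H460 and H1650, over a span of 10.5-fold. CXCL1, CXCL2 and CXCL3, whose upstream stretches are near copies, thus had their highest signal in 3 different lines and their lowest in H1650.

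CXCL5 and CXCL6, whose upstream stretches are the closest pair, parted in H460. CXCL5 read 13.42 and 13.99 in A549, 13.58 and 13.56 in H460, 8.29 and 9.0 in H1650, and 8.73 and 10.73 in H1975. A549 and H460 overlapped at the top, H1975 and H1650 overlapped at the bottom, and the span was 33.3-fold. CXCL6 read 9.91 and 10.18 in A549, 4.30 and 4.82 in H460, 5.50 and 5.07 in H1650, and 6.38 and 9.53 in H1975. Both genes were highest in A549, but H460 was level with A549 for CXCL5 and the lowest line for CXCL6, where it was below the mark. The span of CXCL6 was 5.48 on the log2 scale, 44.8-fold, as deposited and 5.05 when signals under 32 were set to 32, and no neighbouring lines overlapped. CXCL8 read 12.88 and 12.93 in A549, 13.41 and 13.75 in H460, 8.18 and 9.80 in H1650, and 13.58 and 13.61 in H1975. The 3 other lines lay within 0.69 of each other in their means, and H1650 lay 3.91 below the next line, so the span of 24.3-fold rests on H1650.

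The monocyte attractant CCL2 had the widest span. It read 12.73 and 12.60 in A549, 2.37 and 1.24 in H460, 1.54 and 5.67 in H1650, and 12.62 and 13.23 in H1975. A549 and H1975 overlapped at the top, and all 4 arrays of H460 and H1650 were below the mark and overlapped. The deposited span of 11.12 on the log2 scale fell to 7.92, a difference of 243-fold, with signals under 32 set to 32, and that value is the one to read because nothing holds dim MAS5 signals above a floor.

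CCL5 ran the other way in H1650. It read 8.08 and 9.21 in A549, 3.88 and 4.96 in H460, 12.04 and 10.51 in H1650, and 10.01 and 11.25 in H1975. H1650 and H1975 overlapped at the top and H460 was below the mark, at a span of 77.3-fold with signals under 32 set to 32. CCL20, the CCR6 ligand, read 12.54 and 12.31 in A549, 9.32 and 9.33 in H460, 8.89 and 8.80 in H1650, and 11.59 and 11.55 in H1975. SP and MP of CCL20 lay within 0.23 of each other in each line while the lines spanned 3.59 on the log2 scale, and no neighbouring lines overlapped. CXCL16 had the narrowest span, 5.24-fold. It read 9.23 and 9.09 in A549, 9.60 and 9.90 in H460, 9.73 and 9.78 in H1650, and 7.21 and 7.52 in H1975. H1975 alone was low, and H460 and H1650 overlapped at the top.

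In all, the span was wider than the largest gap between SP and MP of a line for 10 of 10 genes. It was over 2 times as wide for 8. The shares of all genes for these counts were not computed, so nothing is read from them. Of 30 pairs of neighbouring lines 10 overlapped, 33.3%, where 38.3% of such pairs overlapped over all 12300 genes. The highest line stood clear of the 6 other arrays for 5 genes (CXCL1, CXCL2, CXCL3, CXCL6 and CCL20), where 64.2% of all 12300 genes did so, and the lowest line stood clear for 7, where 60.7% did. Because the members were selected on these levels, the limma calls that follow are no test of them. Between lines 10 of 10 members were called, and so were 76.3% of all genes. In A549 7 members were called higher than in the mean of the other 3 lines (22.4% of all genes) and 0 lower (21.3%). In H460 4 were called higher (24.2%) and 4 lower (26.8%), and in H1650 2 higher (25.1%) and 8 lower (25.9%). In H1975 6 were called higher (28.1%) and 2 lower (23.8%).

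Probe sets of the same gene ranked the lines alike for CXCL5, CXCL8 and CCL5 but not for CXCL2. The 3 probe sets of CXCL5 gave 1 order of lines, A549, H460, H1975 and H1650, with spans of 5.06, 7.45 and 5.35 on the log2 scale. Both probe sets of CXCL8 placed H1975 first and H1650 last, with spans of 4.61 and 5.61. All 3 probe sets of CCL5 placed H1650 first and H460 last, with spans of 6.27, 6.83 and 6.22 once signals under 32 were set to 32. The other 2 probe sets of CXCL2 were dim, with means of 3.69 and 3.20, and ranked the lines differently. The brightest probe sets of CXCL2, CXCL5 and CXCL8 are of the type marked by Affymetrix as able to pick up related transcripts, and signal from near copies among CXCL1, CXCL2, CXCL3, CXCL5 and CXCL6 cannot be separated here.

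**Figure D2:**
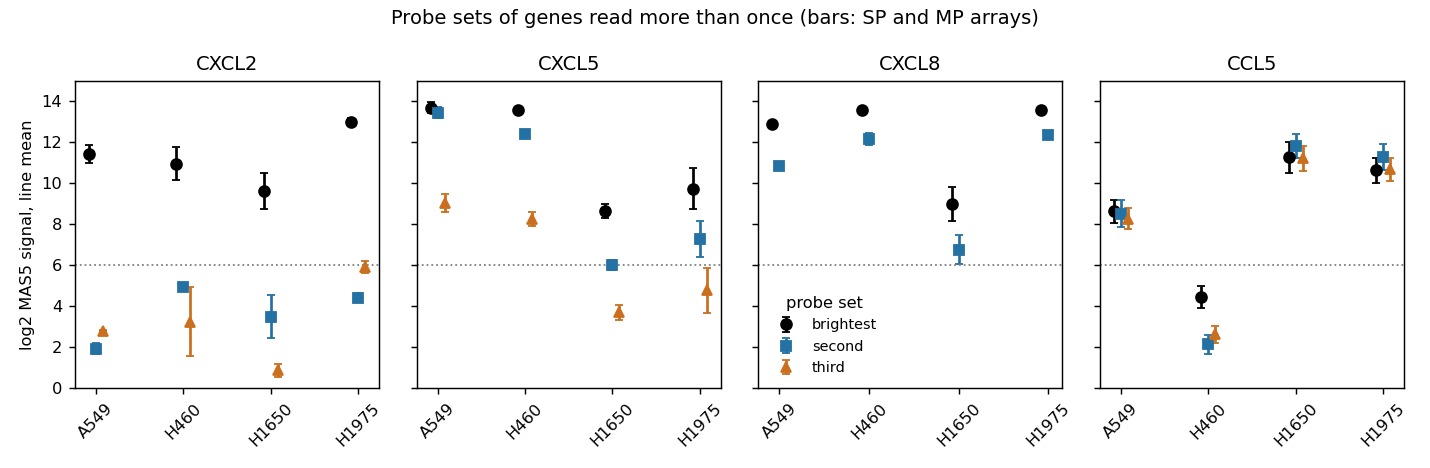
Mean log2 MAS5 signal of SP and MP (vertical axis) in each line (horizontal axis) for the 4 genes with more than 1 probe set, with black circles for the brightest, blue squares for the second and orange triangles for the third probe set. Bars run from one array of the line to the other and the dotted line is at 6.01. The probe sets of CXCL5, CXCL8 and CCL5 go up and down together over the lines, and the dim probe sets of CXCL2 do not.

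The second question was how the chemokines differed between side and main population cells. The signs and amounts of the ratios varied between the genes and between the lines. Some ratios were near 0, such as -0.0072 on the log2 scale for CXCL1 in H460. In H1975 9 of 10 genes had the lower signal in SP, in H460 and H1650 7 each, and in A549 6. The share of all genes lower in SP was not computed, so nothing is read from these counts. Over the 10 genes the median ratio on the log2 scale, SP over MP, was -0.16, -0.15, -0.61 and -0.46 for A549, H460, H1650 and H1975, where the medians over all genes were 0.0038, -0.029, -0.0072 and -0.036. The mean over the 4 lines was below 0 for 8 genes and above 0 for CXCL2 and CCL20, with a median of -0.49 over the genes and -0.017 over all genes.

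CXCL1 was lower in SP of 4 of 4 lines, at log2 ratios of -0.85 for A549, -0.0072 for H460, -1.19 for H1650 and -1.83 for H1975, with a mean of -0.97 ± 0.76 (SD, n = 4 lines). CXCL3 was also lower in each line, from -0.52 in H1650 to -0.044 in H1975, with a mean of -0.30 ± 0.20. CXCL8 was lower in each line on this probe set, at -0.047, -0.34, -1.63 and -0.024 for A549, H460, H1650 and H1975, a mean of -0.51 ± 0.76 that was -0.14 without H1650 and 0.30 with the labels of H1650 exchanged. In linear terms CXCL8 of H1650 was 3.09-fold lower in SP, and the other lines moved little.

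For CXCL5 the log2 ratio was -0.57 for A549, 0.020 for H460, -0.70 for H1650 and -2.0 for H1975, a mean of -0.81 ± 0.85 that was -0.42 without H1975 and -0.46 with the labels of H1650 exchanged. The other 2 probe sets of CXCL5 read -0.50 and -0.86 in A549 and -1.77 and -2.16 in H1975, but 0.50 and 0.76 in H1650, so the direction in H1650 differed between probe sets while that in A549 and H1975 did not. CXCL6 had its change in H1975, at -3.15, an 8.90-fold lower signal in SP, against -0.27 in A549, -0.52 in H460 and 0.43 in H1650. Its mean of -0.88 ± 1.57 became -0.12 without H1975, and the H460 and H1650 arrays were below the mark. CXCL1, CXCL5 and CXCL6 thus each had their lowest ratio in H1975.

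CXCL2 went both ways, higher in SP by 0.88 and 1.60 on the log2 scale in A549 and H460 but at -1.75 and -0.30 in H1650 and H1975, with a mean of 0.11 ± 1.47. That mean was -0.15 without A549 and -0.39 without H460. CCL2 had ratios of 0.13 and 1.14 in A549 and H460, where K-Ras is mutant, and of -4.13 and -0.61 in H1650 and H1975, a mean of -0.87 ± 2.29. The 17.5-fold difference in H1650 lay between signals that were both below the mark, and the mean was 0.22 without H1650, 1.20 with its labels exchanged and -0.29 with signals under 32 set to 32.

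As deposited, CCL5 was lower in SP by a like amount in 3 lines, -1.12 for A549, -1.08 for H460 and -1.24 for H1975, and was higher by 1.53 in H1650. Its mean was -0.48 ± 1.34 over the 4 lines, -1.15 without H1650 and -1.24 with the labels of H1650 exchanged. The H460 ratio lay between signals below the mark. With dim signals raised to the floor value, the H460 ratio was 0 and the mean over the 4 lines was -0.21. The other 2 probe sets of CCL5 read -1.30 and -1.05 in A549, 1.18 and 1.25 in H1650, and -1.24 and -1.16 in H1975. In H460, where CCL5 was below the mark, they read 0.98 and -0.82. CXCL16 and CCL20 had no ratio beyond 0.31 on the log2 scale in either direction. CXCL16 had ratios of 0.14, -0.30, -0.053 and -0.31 in A549, H460, H1650 and H1975, and CCL20 had ratios of 0.23, -0.0091, 0.089 and 0.039.

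**Figure D3:**
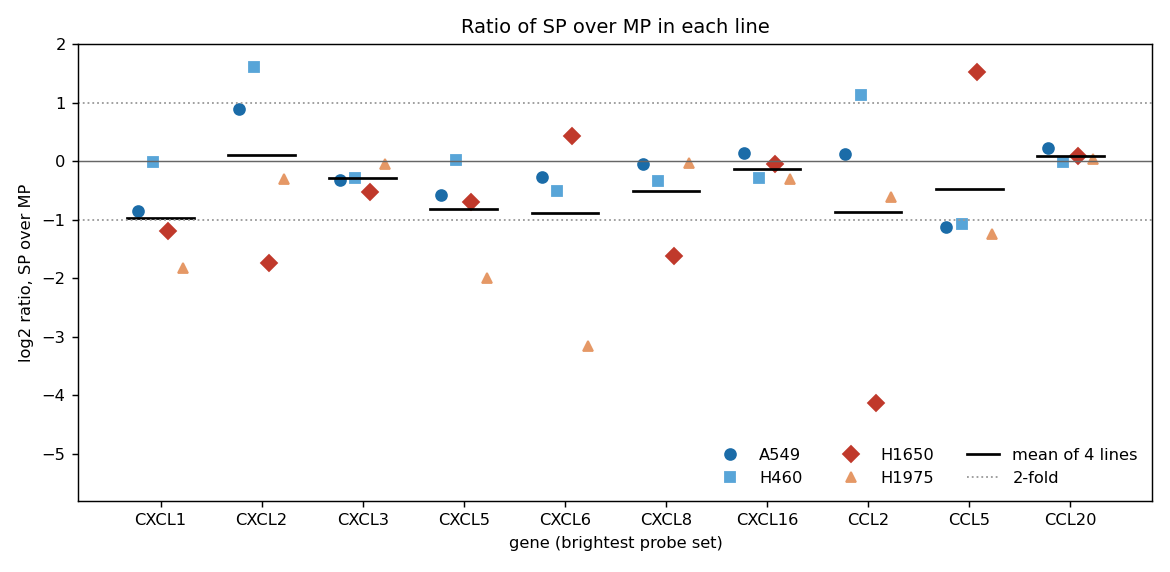
Log2 ratio of SP over MP (vertical axis) for each of the 10 genes (horizontal axis), brightest probe set, with 1 symbol per line and a black bar for the mean of the 4 lines. Dotted lines mark 2-fold. CCL5 lies below -1 in A549, H460 and H1975 and at 1.53 in H1650, and all 4 ratios of CCL20 lie between -0.0091 and 0.23. The H460 ratio of CCL5 is one between signals below the median probe set.

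A change of at least 2-fold in a line was seen in 13 of 40 pairs of gene and line, and in 10 when signals under 32 were set to 32. The 3 that went were CCL2 in H460 and H1650 and CCL5 in H460, all between dim signals. In A549 0 genes were higher in SP by this measure (2.87% of all genes) and CCL5 was lower (1.41%). In H460 CXCL2 and CCL2 were higher (1.98%) and CCL5 lower (1.42%). In H1650 CCL5 was higher (1.02%), and CXCL1, CXCL2, CXCL8 and CCL2 were lower (2.02%). In H1975 0 genes were higher (1.78%), and CXCL1, CXCL5, CXCL6 and CCL5 were lower (2.36%). With all 4 lines in limma, 0 members and 0% of all genes had an adjusted p under 0.05 for SP against MP, while 372 of 12300 genes had an unadjusted p under 0.05. Without H1650 25 genes passed the adjusted threshold, and 0 of them were members.

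The other genes of the chemokine pathway were taken as 7 lists and tested in the same fit across all genes. In A549, H460, H1650 and H1975, 22.4%, 24.2%, 25.1% and 28.1% of all genes were called higher and 21.3%, 26.8%, 25.9% and 23.8% lower, and the counts of each list stand beside these shares. Differences of genes that were below the mark on both arrays of the line compared are floored, that is, given with signals under 32 set to 32. Few other chemokines and receptors passed the filter. Of 23 other chemokines on the arrays 4 passed the filter, 0 of them above the mark on all 8 arrays. CX3CL1, a membrane-bound chemokine, read 10.51 and 11.04 in H1975 and between 3.92 and 7.16 elsewhere. It passed the filter through H1975, so no test of its difference between lines is given. PF4, which lies within the chromosome 4 group, was higher in A549 by 2.81 (SE 0.28, limma adjusted p = 0.0002302), and CCL28, a mucosal chemokine, was higher in H1650 by 2.68 (SE 0.34, limma adjusted p = 0.000549). Of 19 receptors CXCR4 and ACKR3 passed the filter. The receptors of the neutrophil attractants did not, with mean log2 signals of 3.41 for CXCR1 and 2.49 for CXCR2. ACKR3, an atypical receptor that takes up CXCL12, read 1.04 and 0.22 in H460 and between 7.76 and 8.82 in the other lines. The floored difference of H460 was -3.39. ACKR3 passed the filter through the lines where it was high, so no test of this difference is given.

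Of 14 inflammatory genes that are often induced together with chemokines and passed the filter, 8 of them above the mark on all 8 arrays, 10 were called higher in H1975 and 1, PTGS2, lower, with a median difference of 2.19 on the log2 scale where all genes had 0.062. In H460 2 were higher and 9 lower (median -1.08, all genes -0.030), in H1650 2 higher and 9 lower (median -1.22, all genes -0.0071), and in A549 6 higher and 4 lower (median 0.28, all genes 0.0081). The complement genes CFB and C3 differed in H460 by -5.14 (SE 0.29, limma adjusted p = 3.526e-06) and -6.25 (SE 0.15, limma adjusted p = 1.157e-07), both floored. C3 read 13.28 and 13.72 in H1975 and 12.48 and 13.06 in A549 but 4.56 and 3.04 in H460. PTGS2, the inducible cyclooxygenase, was higher in A549 by 6.99 (SE 0.27, limma adjusted p = 5.303e-06), with 13.64 and 13.36 there and 4.55 and 5.20 in H1975. LCN2, an iron-binding protein of innate defence, had a floored difference of -5.73 in H460 (SE 0.40, limma adjusted p = 1.18e-05). IL24 read 10.47 and 11.52 in H1975 and between 5.33 and 6.11 elsewhere. It too passed the filter through H1975, so no test is given. Its calls stay in the counts and medians of the list, where it is 1 of the 10 higher in H1975, and they are no test.

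Of 17 NF-kB subunits, kinases and inhibitors, all above the mark on all 8 arrays, 10 were called higher in H1975 and 3 lower (median 0.69), 4 higher and 0 lower in A549 (median 0.29), 2 higher and 9 lower in H460 (median -0.50), and 2 higher and 7 lower in H1650 (median -0.37). RELB, a subunit, was higher in H1975 by 1.48 (SE 0.25, limma adjusted p = 0.001908), and so was CYLD, a deubiquitinase that restrains the pathway, by 1.62 (SE 0.27, limma adjusted p = 0.001836). Among the inhibitors and kinases, TNFAIP3 differed in H1650 by -1.97 (SE 0.37, limma adjusted p = 0.003507), NFKBIA in H460 by -1.72 (SE 0.34, limma adjusted p = 0.004359), and the kinase IKBKB in H1650 by -1.75 (SE 0.18, limma adjusted p = 0.0001982).

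**Figure D4:**
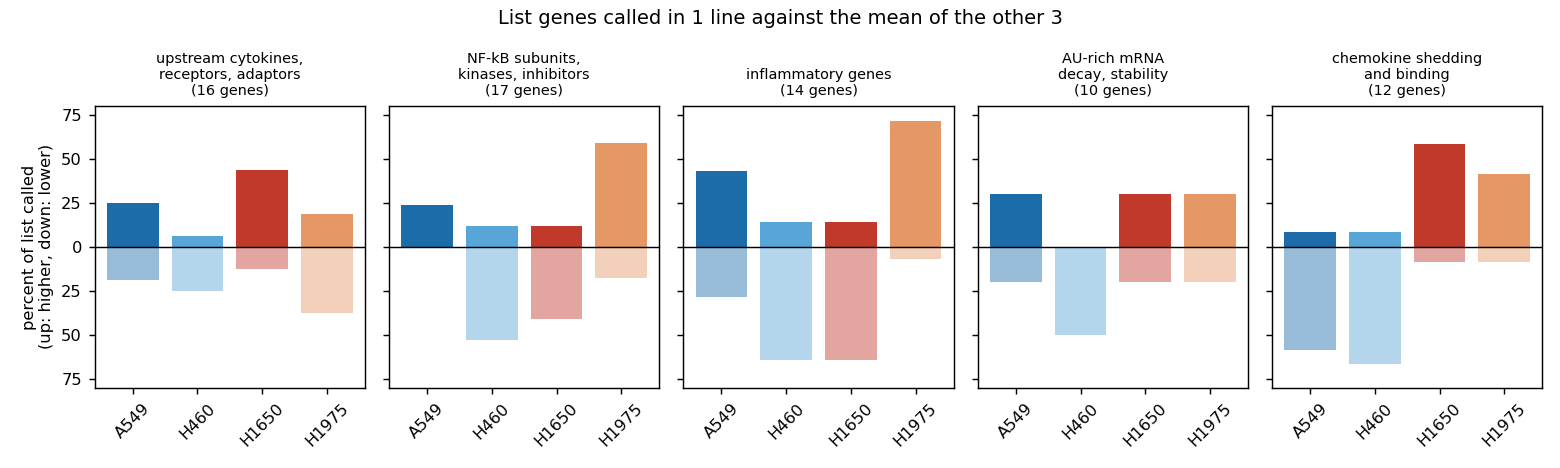
Percent of genes past the filter (vertical axis) called higher (up, full colour) or lower (down, pale) in each line (horizontal axis). Shown are 5 pathway lists, each line against the mean of the other 3 by limma at an adjusted p under 0.05. The number of genes past the filter is given above each panel. The inflammatory list has 10 of 14 genes higher in H1975 and 9 of 14 lower in both H460 and H1650. IL24, 1 of those 10, passed the filter through H1975, so its calls are no test. The calls of TNFRSF1B in the upstream list are no test either, since it passed through H1650 and H1975.

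Cytokines, receptors and adaptors upstream of NF-kB were called in both directions in each line. Of 16 that passed the filter, 4 were higher and 3 lower in A549, near the shares of all genes, 1 higher and 4 lower in H460, 7 higher and 2 lower in H1650, and 3 higher and 6 lower in H1975 (medians 0.086, -0.37, 0.27 and 0.016). A549 had more TNFRSF1A, the main receptor of tumour necrosis factor, by 1.61 (SE 0.13, limma adjusted p = 8.48e-05). It also had more IL18, by 2.36 (SE 0.14, limma adjusted p = 2.231e-05). TNFRSF1B read 2.31 and 3.29 in A549, a floored difference of -2.28. TNFRSF1B passed the filter through H1650 and H1975, so no test is given. Its calls, lower in A549 and higher in H1650 and H1975, stay in the counts and medians of the list and are no test. IL1RAP, a chain of the interleukin 1 receptor, was higher in H1975 by 2.34 (SE 0.31, limma adjusted p = 0.0006875), and the adaptor kinase IRAK2 differed in H460 by -2.20 (SE 0.40, limma adjusted p = 0.002786).

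Of 10 genes of AU-rich mRNA decay and stability 5 were lower and 0 higher in H460, and 3 were higher and 2 lower in each other line (medians 0.17, -0.23, 0.21 and 1e-04 for A549, H460, H1650 and H1975). ZFP36, which speeds the decay of AU-rich mRNAs, was higher in H1650 by 1.23 (SE 0.14, limma adjusted p = 0.0002758), and its relative ZFP36L1 differed in H460 by -1.83 (SE 0.16, limma adjusted p = 8.717e-05). ZFP36L2 differed in A549 by -0.99 (SE 0.28, limma adjusted p = 0.02511) and CNOT7, a deadenylase, in H460 by -0.65 (SE 0.08, limma adjusted p = 0.0004035), while KHSRP was higher in H1975 by 0.99 (SE 0.09, limma adjusted p = 0.0001062).

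Of 12 genes that shed or hold chemokines on the cell surface, 7 were called higher and 1 lower in H1650 (median 0.96), 5 higher and 1 lower in H1975 (median 0.17), 1 higher and 7 lower in A549 (median -0.53), and 1 higher and 8 lower in H460 (median -0.58). SDC1 and NDST1, a heparan sulfate core protein and a sulfotransferase that modifies such chains, were higher in H1650 by 1.39 (SE 0.09, limma adjusted p = 2.855e-05) and 1.52 (SE 0.13, limma adjusted p = 8.033e-05). SDC4 differed in H460 by -2.15 (SE 0.09, limma adjusted p = 3.82e-06) and SDC2 in A549 by a floored -3.39 (SE 0.38, limma adjusted p = 0.0002191), where its SP array read 1.44 and its MP array 5.85. DPP4, a protease that trims chemokines, read 11.38 and 11.02 in H1650 and 4.69 and 5.07 in H460, a floored difference of -4.65 in H460 (SE 0.24, limma adjusted p = 2.532e-06).

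Between SP and MP 0 genes of these 7 lists passed the adjusted threshold in limma, and 0% of all genes did. An unadjusted p under 0.05 was seen for 372 of all 12300 genes and for 3 list genes. The 3 list genes were LCN2 with a mean difference of -1.12, TNFRSF1B with -0.61 and ADAM10, a metalloprotease that sheds CXCL16, with -0.19. Of the 14 inflammatory genes 11 had a mean below 0 in SP (median -0.13), and of the 17 NF-kB genes 7 (median 0.046). The count was 8 of the 16 upstream genes, 7 of the 12 surface genes and 4 of the 10 decay genes. It was 1 of the 4 other chemokines and 1 of the 2 receptors. All genes had a median of -0.017, and their share below 0 was not computed, so nothing is read from these counts.

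Genes with the most alike pattern were ranked by Pearson's r with the chemokine over the 8 arrays. The arrays fall into 4 lines, so r mostly reflects the order of 4 line means, and many genes of any kind reach high values. For CCL20 these were STEAP1 (0.997), NFKB2 (0.988), CDK9 (0.986), CTSB (0.982) and AP2A2 (0.981), and for CXCL8 they were STAMBPL1 (0.993), EEF1AKMT1 (0.993), SND1 (0.990), CAMK1 (0.988) and FSCN1 (0.986). The genes closest to CXCL5 were NFIA (0.992), HDAC4-AS1 (0.991), NSMCE3 (0.989), RPS16 (0.989) and MRPS33 (0.988). CXCL1 was closest to CIAO1 (0.985), NT5E (0.983), AP1G2-AS1 (0.980), ZNF511 (0.978) and EPB41L5 (0.974), and CCL2 to SWAP70 (0.986), IFNGR1 (0.985), HMGA2 (0.980), SH3TC1 (0.980) and RMP64 (0.978). Among the 10 chemokines themselves r over the 8 arrays was highest for CCL20 with CCL2 (0.92), CCL20 with CXCL6 (0.90) and CXCL5 with CXCL1 (0.90). It was lowest for CXCL16 with CXCL2 and for CCL5 with CXCL1, both at -0.80.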

How the data were processed

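Human U133 Plus 2.0 arrays of SP and MP cells were analysed for 4 lines, 1 array per population and line. The authors deposited log2 MAS5 signals, made with GCOS 1.4 per the submitters' processing notes, and the study's methods also name the Expression Console software and a centring of each gene on its mean. The deposited log2 values are not centred, and each array had a linear trimmed mean of 500.1, leaving out 2% at each end. Detection calls were not used here. The number of arrays limits the precision.

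The platform annotation named the probe sets (41097 with 1 symbol, 1801 with several, 11777 with none), and the brightest probe set stood for a gene. The 12300 genes whose mean reached 6.01, the median of all probe set means, were fitted by limma 3.58.1 in R 4.3.3 (lmFit, eBayes with trend). Line was tested with population as a term and SP against MP with cell line as a block, since SP and MP were sorted from the same line, with Benjamini-Hochberg adjustment over all genes and a threshold of 0.05. Nothing says that the arrays came from separate cultures, so p-values measure only the spread between these arrays. The fit was tested on simulated data.

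The members, the 7 pathway lists and the epithelial, leukocyte, fibroblast and endothelial markers were chosen with earlier results of these data known. Named were all members, up to 5 genes per list with the largest difference of 1 line among those called, and the 5 genes most like each of 5 members. The genes named outside this rule, chosen after their values were seen, are CXCR1, CXCR2, CXCR4, ADAM10 and some markers. Alternatives were quantile normalization, a shift of each array to 1 median, linear signals with a floor of 32 or with 16 added as a pseudocount, other filters, every probe set, the mean over probe sets, no block, no population term, no trend, an adjusted p under 0.1, the labels of H1650 exchanged, and leaving out each line or array. Which of these applied to the counts of 1 line against the others, of 2-fold changes and of pairs of member and line was added after seeing the data, and so was the floor for the named list genes.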

Additional observations from a re-analysis of the deposited data

Results flagged for a closer look

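In 2 of 30 groups of 4 values, the 4 lines for a level in SP, a level in MP or a ratio of 1 gene, 1 value lay far from the others, with its gap over the group's range above Dixon's critical value. Chance flags about 1 in 20 groups of independent values that were not selected. The genes here were selected on these values, and each ratio is made from the SP and MP levels of its gene. The flags are therefore a description and no test. CXCL8 in SP of H1650 read 8.18, with a gap over range of 0.870. The log2 ratio of CCL5 in H1650 was 1.53, with a gap over range of 0.941. The other 3 lines had ratios between -1.24 and -1.08 as deposited. The -1.08 of H460 lay between signals below the median probe set and was 0 when floored. In H460 the other 2 probe sets of CCL5 read 0.98 and -0.82. The gap over range was not recomputed with floored signals, so this flag rests in part on dim signals. For CXCL2 both K-Ras mutant lines had a ratio of SP to MP above 0 on the log2 scale and both EGFR mutant lines one below 0, and the mean ratios differed by 2.27. The same held for CCL2, with a difference of 3.0, in which the H460 and H1650 arrays were below the median probe set. For CXCL2 this is the brightest probe set, and the 2 dim ones read 0.46 and 0.59 in H1975, above 0. For both genes the split rests on the labels of H1650. These differences between K-Ras and EGFR mutant lines were not tested.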

How the results depend on the processing

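Exchanging the labels of H1650 took the count of genes called between SP and MP from 0 to 210, and leaving out 1 line or array gave 0 to 25 genes, with 25 without H1650, 23 without its SP array and 20 without its MP array. With no cell line block it was also 0. Taking every probe set with 1 symbol raised the genes differing between lines from 9380 to 19385 and the calls of 1 line against the others from 24310 to 46153, since more features were tested, and leaving out 1 line or array gave 16190 (without H460) to 24353 of the latter and 7579 to 9497 of the former. Over the 4 lines 1828 changes of at least 2-fold were counted, 12533 without a filter, 631 at a mean log2 signal of at least 8 and 1176 with a pseudocount of 16. Of 100 recomputed member ratios 2 moved by more than the spread between lines, the mean ratio of CXCL3 to -0.036 and that of CXCL8 to 0.30, both with the labels of H1650 exchanged. The mean ratio changed sign for CCL2 (1.20 with those labels exchanged, 0.22 without H1650), CXCL2 (-0.15 without A549, -0.39 without H460) and CXCL8 (0.30). Of 100 recomputed spans 19 moved: that of CXCL8 was 0.69 without H1650, that of CXCL16 0.59 without H1975 and that of CCL5 2.63 without H460. The cause of these changes was not tested beyond what each alternative leaves out. Dim signals limit CCL2, CXCL6 and CCL5 in H460 and CCL2 and CXCL6 in H1650.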
